A study of Homo sapiens with 7 samples.

Results

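Transthyretin (TTR), retinol binding protein (RBP4), alpha-1-microglobulin/bikunin precursor (AMBP), vitronectin (VTN), fetuin-A (AHSG), fetuin-B (FETUB), histidine-rich glycoprotein (HRG) and kininogen (KNG1) are proteins that liver cells release into blood plasma. Their 8 genes were taken by symbol from the expression table of HepG2 cells, in which each had 1 locus with coordinates of its own among 23303 loci that carry a gene symbol. HepG2 is an established human liver cancer cell line, grown here with no treatment named in the labels. It was profiled with 7 samples, 1 per assay. These were ChIP-Seq libraries for H3K27ac, H3K9ac, H3K4me3, H3K9me3 and H3K27me3, a nucleosome map from native MNase-Seq, and RNA-Seq with 2 value columns, called run 1 and run 2 here. With 1 sample per assay no test between samples could be made, so levels, counts and counting intervals are given as descriptions of this culture.

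The proteins fall into a few roles. RBP4 is the plasma carrier of retinol and circulates bound to TTR, which also carries thyroid hormone. AMBP encodes one precursor that is cut into alpha-1-microglobulin, a heme-binding lipocalin like RBP4, and bikunin, the protease inhibitor chain of the inter-alpha-trypsin inhibitors. VTN is an adhesion protein that binds integrins. AHSG, FETUB, HRG and KNG1 all carry cystatin-like domains, and their genes lie side by side. AHSG is an inhibitor of ectopic calcification, FETUB a protease inhibitor needed for fertilization, HRG a heparin- and metal-binding plasma protein, and KNG1 the precursor of the vasodilator peptide bradykinin. Among the histone marks, H3K4me3, H3K9ac and H3K27ac are found at active promoters and H3K27ac also at enhancers, while H3K27me3 and H3K9me3 are marks of silenced chromatin. A nucleosome position that carries H3K4me3, H3K9ac and H3K27ac is called trivalent below.

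Promoter sequences from RefSeq (GRCh38.p14), each from 250 bases before to 50 bases after an annotated start, were matched by symbol for 7 of the 8 genes, all but TTR. The 6 shown are those of the 3 most highly expressed genes and of the other genes in the chromosome 3 cluster, whose loci carried from 0 to 24 marked positions. Capitals mark matches on either strand to the box with the letters TATAAA, the HNF4 half-site CAAAGTC, the FOXA letters TGTTTAC or TGTTTGC, and the C/EBP letters TTGCNNAA. Where a gene has several starts, 1 is shown.
AHSG, chr3:186612810-186613109, plus strand: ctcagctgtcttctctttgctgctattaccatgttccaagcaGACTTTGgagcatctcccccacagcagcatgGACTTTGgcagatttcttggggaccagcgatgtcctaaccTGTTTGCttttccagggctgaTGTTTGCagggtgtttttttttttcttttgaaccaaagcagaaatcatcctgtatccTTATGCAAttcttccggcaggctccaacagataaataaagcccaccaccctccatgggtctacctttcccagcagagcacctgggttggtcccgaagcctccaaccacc
AMBP, chr9:114078251-114078550, minus strand: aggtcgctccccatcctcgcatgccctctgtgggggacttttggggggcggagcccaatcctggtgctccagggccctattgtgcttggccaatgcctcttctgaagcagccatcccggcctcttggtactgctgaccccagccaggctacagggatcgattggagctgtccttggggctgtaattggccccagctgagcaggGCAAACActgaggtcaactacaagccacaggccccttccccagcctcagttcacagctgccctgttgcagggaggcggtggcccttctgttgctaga
RBP4, chr10:93601186-93601485, minus strand: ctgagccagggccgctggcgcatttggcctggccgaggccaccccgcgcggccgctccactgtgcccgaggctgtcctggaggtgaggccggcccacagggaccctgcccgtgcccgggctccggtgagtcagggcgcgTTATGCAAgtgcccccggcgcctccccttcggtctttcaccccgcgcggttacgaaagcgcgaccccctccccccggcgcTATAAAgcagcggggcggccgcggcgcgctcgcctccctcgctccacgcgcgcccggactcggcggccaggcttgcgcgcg
KNG1, chr3:186717109-186717408, plus strand: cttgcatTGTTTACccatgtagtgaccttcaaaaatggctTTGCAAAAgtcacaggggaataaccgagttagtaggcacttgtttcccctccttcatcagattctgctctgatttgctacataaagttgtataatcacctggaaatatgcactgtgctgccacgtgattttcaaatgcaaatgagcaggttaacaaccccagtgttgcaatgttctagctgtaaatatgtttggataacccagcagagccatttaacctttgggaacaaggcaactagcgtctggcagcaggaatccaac
FETUB, chr3:186640149-186640448, plus strand: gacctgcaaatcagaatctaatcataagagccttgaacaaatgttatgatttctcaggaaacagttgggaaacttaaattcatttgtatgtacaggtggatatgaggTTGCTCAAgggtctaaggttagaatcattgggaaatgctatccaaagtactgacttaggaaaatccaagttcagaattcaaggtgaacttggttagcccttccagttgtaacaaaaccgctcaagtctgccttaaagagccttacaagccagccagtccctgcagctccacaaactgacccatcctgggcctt
HRG, chr3:186665764-186666063, plus strand: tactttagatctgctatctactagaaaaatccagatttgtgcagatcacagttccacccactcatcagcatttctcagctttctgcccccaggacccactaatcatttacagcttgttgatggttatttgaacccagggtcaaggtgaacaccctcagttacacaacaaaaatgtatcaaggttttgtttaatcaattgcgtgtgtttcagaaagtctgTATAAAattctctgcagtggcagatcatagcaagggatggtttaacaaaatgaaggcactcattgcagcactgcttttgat

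The RBP4 start shown held 42 CpG dinucleotides, against a median of 14 over 35116 promoters of the same length. The other starts of RBP4 held 17 and 7. AMBP held 6, AHSG 3, KNG1 3, FETUB 1 and HRG 1, so CpG-rich sequence was found at RBP4 among the sequences shown. VTN, not shown, held 5. The AHSG promoter had 2 matches to the HNF4 half-site, 2 to FOXA and 1 to C/EBP. KNG1 had 1 match each to FOXA and C/EBP, AMBP 1 to FOXA, FETUB 1 to C/EBP, and HRG 1 to the TATA box at bases -31 to -26, counted from the start at 0. RBP4 had a TATA box match at the same bases and 1 match to C/EBP. At VTN the match to FOXA overlapped 1 of 2 matches to C/EBP. Of all promoters in the table, 11.5% held the TATA box letters, 3.37% the HNF4 half-site, 7.17% FOXA and 10.5% C/EBP. No member promoter held the HNF1 half-site letters GTTAAT, which 6.88% of all promoters held. These are matches of letters, chosen after the promoters were seen, and are not evidence of binding.

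The 8 genes covered a wide range of expression. In FPKM, a read level scaled to transcript length and library size, AHSG was listed at 1476 in run 1 and 1470 in run 2, rank 32 of the named loci by the mean of both runs. AMBP was at 763.3 and 756.8, rank 107. RBP4 was at 540.6 and 531.3, rank 133. These 3 genes were far above the rest, with 92.8% of the members' summed FPKM of 2982, and AHSG alone had 49.4%. TTR, the partner of RBP4 in plasma, was at 157.4 and 147.0, so RBP4 was 3.52-fold higher per length. VTN was at 44.2 in run 1 and 44.7 in run 2.

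The other genes of the chromosome 3 cluster were low. KNG1 was at 9.93 and 9.70 FPKM, HRG at 3.28 and 3.73, and FETUB at 3.73 and 3.10. Neighbours in the cluster thus differed by orders of magnitude, with AHSG 431-fold above FETUB, 420-fold above HRG and 150-fold above KNG1 in mean FPKM. KNG1 was 2.80-fold above HRG and 2.87-fold above FETUB. The order of HRG and FETUB differed between the runs, so their levels could not be ranked. Every other pair of neighbours in the order of levels kept its order in both runs, with ranges that did not overlap. The difference between runs was largest for FETUB, which was lower in run 2 by a log2 difference of -0.27. For comparison, the upper decile of the absolute log2 difference over named loci at an FPKM from 1 to under 10 was 0.32. The 2 runs give a range only, since the sources used here do not say whether they came from separate cultures.

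**Figure D1:**
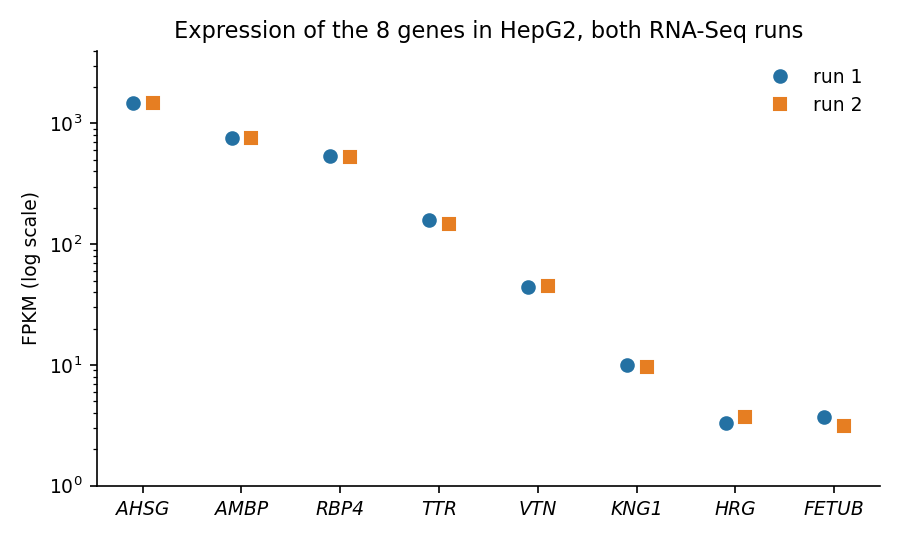
FPKM of the 8 genes in each RNA-Seq run, on a log axis, ordered by mean. The points of run 1 and run 2 lie close together for each gene, from 1476 and 1470 for AHSG to 3.73 and 3.10 for FETUB, and HRG and FETUB change places between the runs.

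All 8 genes had an FPKM of at least 1, which 48.7% of named loci reached. An FPKM of at least 100 was found for 4 of the 8, AHSG, AMBP, RBP4 and TTR, and for 3.11% of named loci. The members together held 0.350% of all FPKM in run 1 and 0.302% in run 2. Their summed FPKM was 2999 in run 1 and 2966 in run 2. The total over all loci was 857059 in run 1 and 982212 in run 2, so the shares differ mainly by the total. The cells carried the markers of their lineage. All 10 hepatocyte and HepG2 markers were expressed at an FPKM of at least 1, from 12.5 to 10011, with summed FPKM of 18525 and 18876 in the runs. Of 4 leukocyte markers PTPRC and CD3E were listed at 0, CD14 was at 2.53, and CD68 at 543 in a row shared by 7 gene symbols (sums 544 and 547). The 4 endothelial markers lay between 0.116 and 0.693, with sums of 1.20 and 0.989, and the 4 fibroblast and stellate markers between 0.164 and 2.005, with sums of 3.73 and 3.29.

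For the marks, all nucleosome positions over each locus plus 10 kb on either side were read with the peaks assigned to them. The windows held 1309 positions, each counted once, and 89 carried at least 1 mark, which is 6.80% (exact Clopper-Pearson 95% interval 5.50 to 8.30). Over the whole map, which includes regions without genes, 1.43% of positions were marked. No such share was counted for the windows of other named loci, so the difference is not particular to these genes. The study itself reports a higher share of modified nucleosomes than the deposited peaks give, for reasons not examined here. H3K27ac was on 62 of the positions, H3K9ac on 44, H3K4me3 on 43, H3K9me3 on 2 and H3K27me3 on 0. The most frequent state was H3K27ac alone, on 34 positions, followed by the trivalent state on 20, H3K4me3/H3K9ac on 12 and H3K4me3 alone on 8. These counts include 8 positions of the VTN window, 4 trivalent and 4 with H3K4me3/H3K9ac, that lay inside a neighbouring locus. Of the 62 positions with H3K27ac, 40 did not carry H3K4me3. Intervals cover counting error only and treat neighbouring positions as independent. The peak lists hold called peaks without depth, so a position without a peak is one where no enrichment was called.

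The marks were unevenly spread among the genes. AMBP had 24 marked positions of 199, VTN 19 of 129, KNG1 17 of 239, AHSG 16 of 177, TTR 7 of 145 and RBP4 6 of 151. FETUB had 0 of 182 and HRG 0 of 170, with upper bounds of the exact interval at 2.01% and 2.15%. These bounds treat positions as independent, whereas marked positions came in runs and the windows of FETUB and HRG shared 44 positions. Thus 6 of 8 genes had at least 1 marked position, against 90.0% of named loci on chromosomes 1 to 22, X and Y. A trivalent position was present for 4 of 8, AHSG, AMBP, RBP4 and VTN, against 63.3% of named loci. H3K27me3 or H3K9me3 was present for 2 of 8, AHSG and TTR, with 1 position of H3K9me3 each, against 46.9% of named loci. The genes without a mark were both expressed, HRG at a mean of 3.51 and FETUB at 3.41 FPKM. Of named loci at an FPKM from 1 to under 10, 0.929% had no marked position in the same window, and 1.49% of those with coordinates of their own.

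Within 2 kb of the transcription start site (TSS) the 8 genes had 159 positions, of which 46 were marked and 15 were trivalent. The marked share was 28.9%, against 17.3% over loci with their own coordinates and 36.8% over loci at an FPKM of at least 100. AMBP, the second most highly expressed of the genes, had 14 marked of 19 positions and 5 trivalent. AHSG had 12 marked of 23 and 4 trivalent, RBP4 6 of 17 and 4, and VTN 11 of 21 and 2. TTR had 1 marked of 21 positions and KNG1 2 of 16, with 0 trivalent at either. FETUB and HRG had 0 marked of 21 each. At least 3 trivalent positions near the TSS were thus found for 3 of 8 genes, against 27.4% of named loci with their own coordinates.

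The 4 genes at an FPKM of at least 100 did not share 1 state at the TSS. AHSG, AMBP and RBP4 had at least 3 trivalent positions, as did 70.6% of loci at that level, and their counts of 4, 5 and 4 lay within the quartiles of 2 to 5 around a median of 4. At least 1 was found for these 3 of the 4 genes and for 90.0% of loci at that level, and TTR, at 152 FPKM, had none. VTN was expressed at 44.4 FPKM with 2 trivalent positions. Among the genes at an FPKM from 1 to under 10, FETUB and HRG had no marked position within 2 kb of the TSS, as did 8.28% of such loci with their own coordinates. The number of trivalent positions therefore did not follow the order of expression throughout, with AMBP above AHSG, and TTR below VTN.

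**Figure D2:**
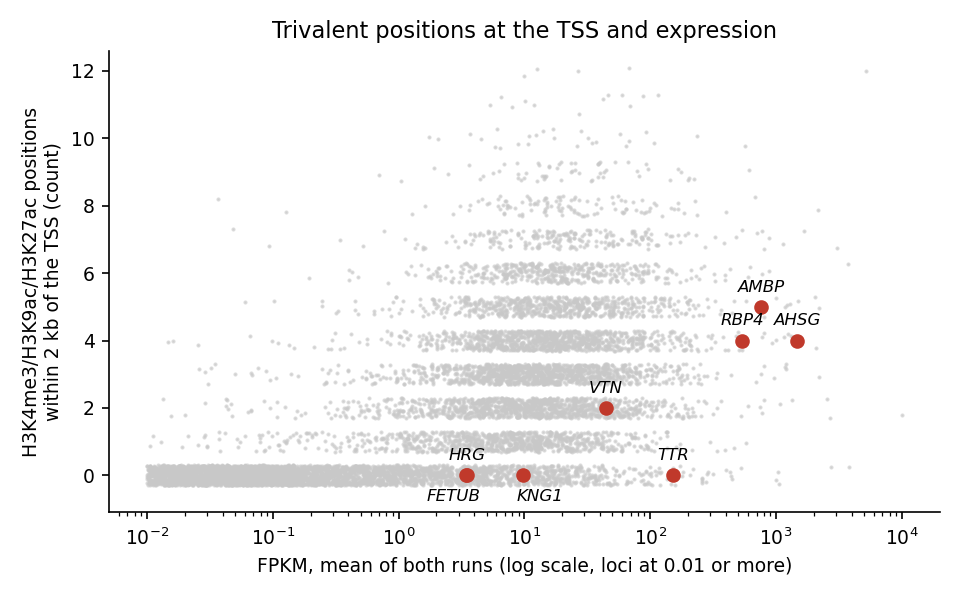
Number of trivalent positions within 2 kb of the TSS against mean FPKM (log axis) for named loci with their own coordinates (grey, shifted slightly up or down to separate them) and the 8 genes (red). AMBP, AHSG and RBP4 lie at 4 or 5, VTN at 2, and TTR at 0 despite 152 FPKM, beside KNG1, HRG and FETUB.

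Downstream of the TSS, AHSG, AMBP and RBP4 each had trivalent positions first, followed by positions without H3K27ac. At AHSG (hg19 chr3:186330500-186345448, plus strand) the trivalent positions had midpoints at 414, 556, 691 and 871 bp. They were followed by H3K4me3/H3K9ac/H3K9me3 at 1051 bp and by 5 H3K4me3/H3K9ac positions between 1181 and 2203 bp, with 1 H3K4me3 position among these at 1566 bp, and then by H3K9ac alone at 2806 and 3096 bp. At AMBP (chr9:116822408-116840752, minus strand) the 5 trivalent positions downstream lay between 175 and 972 bp, 2 with H3K4me3/H3K9ac at 1235 and 1415 bp, and 5 with H3K4me3 alone from 1675 to 2214 bp. At RBP4 (chr10:95351593-95360993, minus strand) 3 trivalent positions at 516, 739 and 871 bp were followed by H3K4me3/H3K9ac at 1091 bp and H3K4me3 at 1401 bp. Within about 3 kb downstream, H3K27ac thus reached the shortest distance at all 3 genes, and H3K4me3 the longest at AMBP and RBP4, whereas at AHSG H3K9ac reached farther than H3K4me3.

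Loci at an FPKM of at least 100 had their median distances in the order trivalent, H3K4me3/H3K9ac, H3K4me3 alone. Trivalent positions within 3 kb downstream had a median distance of 580 bp, H3K4me3/H3K9ac of 998 bp and H3K4me3 alone of 1216 bp. AHSG had medians of 624, 1446 and 1566 bp, AMBP 448, 1325 and 1950 bp, and RBP4 739, 1091 and 1401 bp. Measured from the listed starts, the H3K4me3/H3K9ac and H3K4me3 positions of the 3 genes therefore lay farther out than these medians, some of them on 1 position only. The listed AHSG start may be off by 344 bp, and RBP4 has RefSeq starts up to 509 bp apart. The excess at both genes may therefore depend on the start used.

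The upstream sides differed. AMBP had 10 marked positions from 215 to 4015 bp upstream, all with H3K27ac, of which 8 carried H3K27ac alone, 1 H3K9ac/H3K27ac at 2845 bp and 1 was trivalent at 3498 bp. AHSG had H3K27ac alone at 314 and 416 bp upstream and at -7.03 kb. RBP4 had 1 trivalent position at 294 bp upstream, and VTN 1 with H3K27ac alone at 486 bp. AMBP thus had the most upstream positions with H3K27ac among the 8 genes. Beyond its other end it also had 2 positions with H3K9ac alone, 19.1 and 19.2 kb downstream of the TSS. The nearest genes to AMBP were low, ZNF618 at 0.0569 FPKM and KIF12 at 1.11 FPKM.

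**Figure D3:**
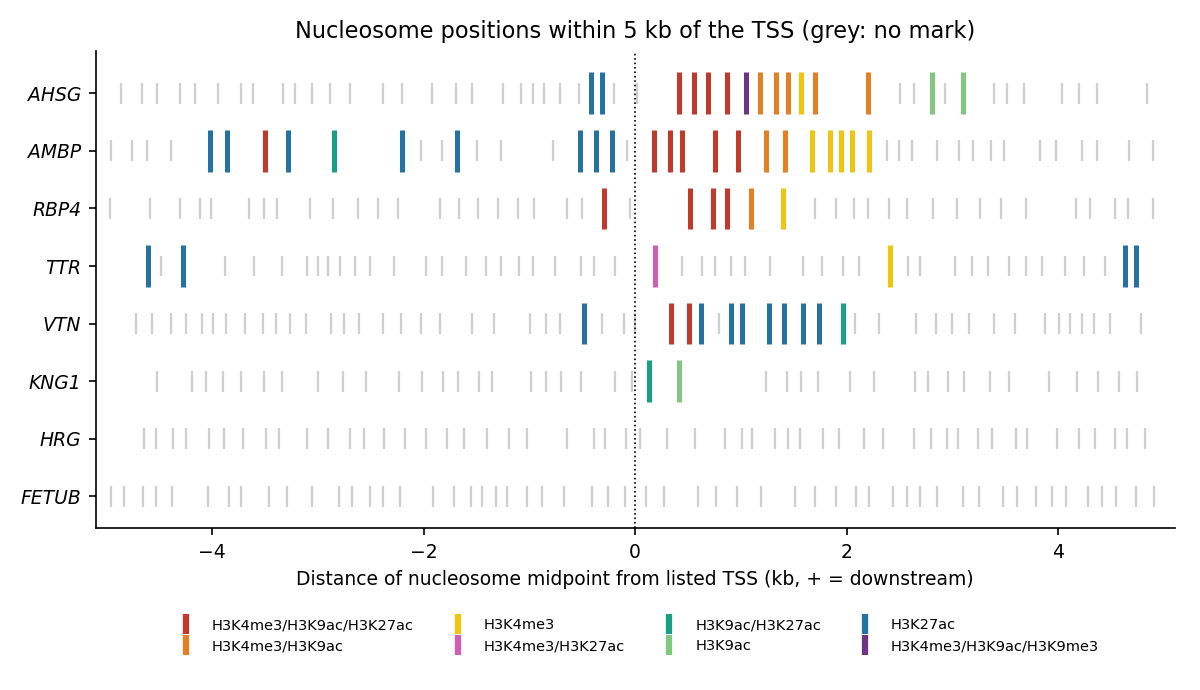
Midpoints of all nucleosome positions within 5 kb of the listed TSS of each gene, in kb with downstream to the right. Coloured bars carry the marks named in the key and grey bars none. AHSG, AMBP and RBP4 show trivalent positions from 175 to 972 bp downstream followed by H3K4me3/H3K9ac, VTN shows mainly H3K27ac alone, and HRG and FETUB show no marked position.

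VTN (chr17:26693290-26697551, minus strand) had a different pattern. Of its 10 marked positions from 337 to 1964 bp downstream, the first 2, at 337 and 509 bp, were trivalent, 7 carried H3K27ac alone and the last H3K9ac/H3K27ac. All 10 had H3K27ac and 2 had H3K4me3, whereas all 12 marked positions of AMBP within 3 kb downstream had H3K4me3 and 5 had H3K27ac. The remaining 8 marked positions in the VTN window, 4 trivalent and 4 with H3K4me3/H3K9ac, were 12.4 to 13.7 kb downstream. These lay inside the locus shared by TNFAIP1, TMEM199 and POLDIP2, listed at 9.85, 20.9 and 51.3 FPKM, and nearer to another TSS than to that of VTN. Of the other genes whose loci reach into the VTN window, SLC46A1 was at 7.38, SEBOX at 0.136 and SARM1 at 0.0841 FPKM.

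TTR (chr18:29171730-29178986, plus strand) had 1 marked position within 2 kb of its TSS, against a median of 7 over loci at an FPKM of at least 100. It carried H3K4me3/H3K27ac, at 186 bp. The others were H3K4me3 alone at 2411 bp, H3K27ac alone at 4631 and 4736 bp downstream and at 4274 and 4604 bp upstream, and H3K9me3 alone at 8.65 kb, past the end of the locus. H3K9ac was called on 0 of the 145 positions. RBP4, which binds TTR in plasma, had H3K4me3 on all 6 and H3K9ac on 5 of its marked positions. TTR thus had H3K27ac positions on both sides of the TSS at more than 4 kb, and none of the trivalent run found at RBP4. The nearest named loci to TTR, DSG2 and B4GALT6, were at 26.97 and 2.60 FPKM and lay 42.9 and 23.1 kb away. Those beside RBP4, GPR120 and PDE6C, were at 0.0361 and 0.181 FPKM.

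The single H3K9me3 position of AHSG stood inside its run of activation marks. At 1051 bp downstream, between the trivalent positions and those with H3K4me3/H3K9ac, it carried H3K4me3, H3K9ac and H3K9me3. This exact combination was found on 17 positions of 14217405 in the map. H3K9me3 was on 34534 positions in all, of which 33376 carried no other mark.

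The genes AHSG, FETUB, HRG and KNG1 followed each other on the plus strand of chromosome 3 over 131700 bp. This stretch plus 10 kb on either side held 783 nucleosome positions, of which 33 were marked, 16 at AHSG and 17 at KNG1. Between the last marked position of AHSG, ending at 186333666, and the first of KNG1, starting at 186435165, lay 101 kb with 526 positions and no mark. This stretch held FETUB (chr3:186357942-186371514) and HRG (chr3:186383798-186396023) whole. The nearest marked midpoints were 24.3 kb below and 77.3 kb above the TSS of FETUB, and 50.2 kb below and 51.4 kb above that of HRG. The windows of AHSG and FETUB shared 39 positions, and those of FETUB and HRG 44, with 0 marked in either overlap. Unmarked stretches of this size are not rare in the map. Of 203824 intervals between neighbouring marked positions, 4163 (2.04%) held at least as many positions, and together these held 23.1% of all positions. The 203824 include intervals with no unmarked position between the neighbours, so the share among unmarked stretches alone is higher.

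**Figure D4:**
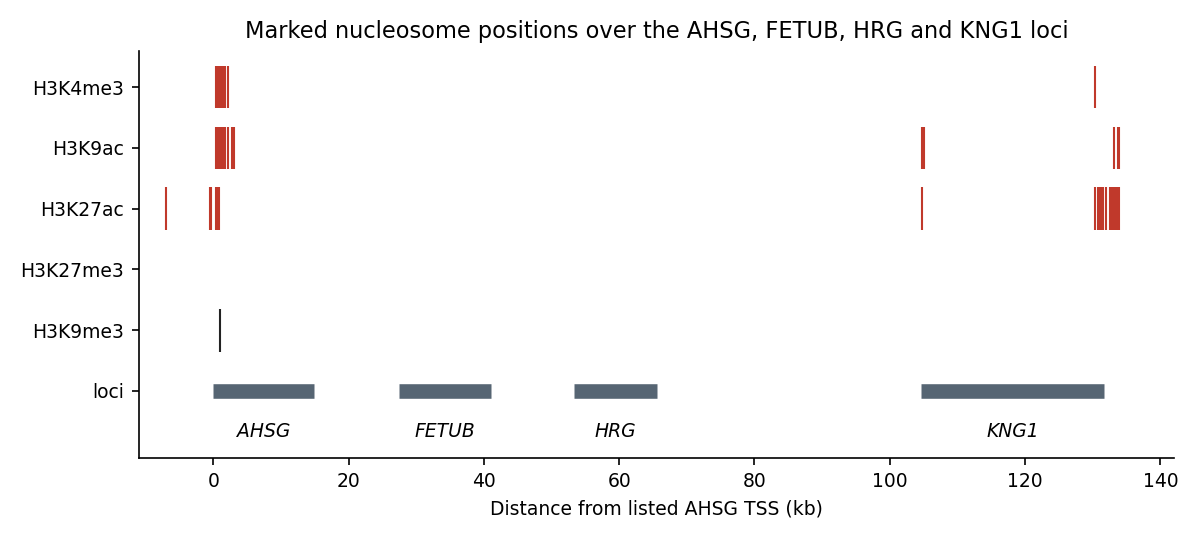
Marked nucleosome positions over the AHSG, FETUB, HRG and KNG1 loci, in kb from the listed AHSG TSS, with 1 row per mark and the loci as grey boxes. Marks lie at the start of AHSG, at the start of KNG1 and around the end of KNG1, the 101 kb that hold FETUB and HRG have none, the H3K27me3 row is empty, and H3K9me3 has 1 position at AHSG.

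KNG1 (chr3:186435098-186462199, plus strand) had marks at both ends. Near its TSS it had H3K9ac/H3K27ac at 136 bp and H3K9ac alone at 418 bp, and no H3K4me3. The next 126 positions, over 25.1 kb of the gene body, had none. From 25.7 to 29.3 kb downstream, at chr3:186460697-186464466, 15 of 20 positions were marked, all with H3K27ac. Of these, 11 carried H3K27ac alone, 3 H3K9ac/H3K27ac and 1 H3K4me3/H3K27ac. The stretch crossed the end of the locus, with 5 marked positions inside it and 10 beyond. At least as many positions with H3K27ac alone as the 11 of KNG1 were found for 5.67% of named loci, and the upper decile over all named loci was 7. The next named locus, EIF4A2, at 222 FPKM, was 37.5 kb beyond the end of KNG1. The next below AHSG, DNAJB11, was at 71.1 FPKM, 26.9 kb away.

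Spacing of the nucleosome positions was alike among the genes, whether marked or not. The median distance from 1 position start to the next was between 172 bp at VTN and 185 bp at RBP4, with 175 bp at FETUB and 178 bp at HRG. The longest stretch without a position within 1 kb of the TSS was 425 bp at RBP4, from 22 to 446 bp downstream, followed by 258 bp at AHSG, 235 bp at TTR and 198 bp at VTN. It was 185 bp at FETUB and at KNG1, 172 bp at AMBP and 143 bp at HRG. The medians over loci with their own coordinates were 278 bp at an FPKM of at least 100 and 175 bp at an FPKM under 0.1. RBP4 was above the first of these values, and AMBP, with 5 trivalent positions, was below both.

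The listed starts, used as TSS here, did not all match the starts in RefSeq. The AHSG locus was 6690 bp and the VTN locus 1238 bp longer than the RefSeq gene, FETUB differed from it by -3600 bp, and RBP4 has 3 RefSeq starts up to 509 bp apart. Measured within each annotation, the AHSG start lay 53298 bp from that of HRG as listed and 52954 bp in RefSeq, a difference of 344 bp, so distances from the AHSG TSS may be off by about that much. KNG1 differed by -45 bp. FETUB has 2 RefSeq starts, and the listed spacing to HRG of 25856 bp was nearer to that of the second (25615 bp), which is the start printed above, than to that of the first (30045 bp). The first has a TATA box match at bases -30 to -25. Whether the lengths of the loci bear on their FPKM was not tested.

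Genes of related proteins were read from the same table. Among 13 cystatin genes 4 had an FPKM of at least 1 and 5 were listed at 0. CST3 was at 595, CSTB at 98.7 and CSTA at 15.9 FPKM, and CSTA had 1 H3K9me3 position. Among 12 lipocalins 9 were expressed. ORM1 and ORM2, acute-phase plasma proteins whose values come from 1 shared row, were at 403, and APOM, an apolipoprotein, at 128 FPKM. All 5 listed inter-alpha-trypsin inhibitor heavy chains, the partners of bikunin, were expressed, with ITIH2 at 491, ITIH3 at 44.1 and ITIH4 at 8.94 FPKM, the last in a row shared by 4 gene symbols. ITIH2 and ITIH5, at 3.25 FPKM, had H3K27me3 and H3K9me3 positions.

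Of 11 genes for retinol handling 5 were expressed. Below RBP4 and TTR came the cellular carrier RBP5 at 14.3 and the retinol dehydrogenase RDH10 at 13.7 FPKM. The retinol receptor STRA6 was at 0.258, with no mark of 276 positions, and LRAT, which esterifies retinol, at 0.0646 FPKM with H3K27me3 on both of its marked positions. H3K27me3 or H3K9me3 was also found for RBP7 and DHRS9, and for RBP2, RBP5 and RDH10, whose coordinates are shared with other genes.

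Of 9 kallikrein-kinin genes 5 were expressed. CPN2, a subunit of the carboxypeptidase that inactivates kinins, was at 43.2, the clotting factor F11 at 23.6 and CPN1 at 5.53 FPKM. The bradykinin receptors BDKRB1 and BDKRB2 were at 0.0175 and 0.0136 FPKM, far below the 9.81 of their ligand's gene KNG1. KLKB1, F11 and BDKRB2 had H3K27me3 or H3K9me3. Of 8 vitronectin partners 5 were expressed, led by the integrin subunits ITGB1 at 183 and ITGAV at 60.2 FPKM. ITGB1 and PLAU had 1 H3K9me3 position each. All 10 other plasma carriers were expressed, with ALB at 10011, APOH at 2073 and TF at 1006 FPKM. ALB, GC, TF, HPX, CP and SHBG had H3K27me3 or H3K9me3. Of the list genes with these marks, ITIH2, KLKB1, F11, PLAU, CP and SHBG also have shared coordinates, so their marks may belong to other genes. GC, the carrier of vitamin D, was lowest at 8.96 FPKM, above HRG and FETUB and near KNG1. Silencing marks and high expression thus occurred in 1 window for ALB and TF as for AHSG and TTR. These windows reach 10 kb beyond the locus. In windows of the same kind 46.9% of named loci had such a mark, so its presence is not particular to these genes. No such share was counted for loci at an FPKM of at least 100, so a link to high expression was not tested.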

How the data were processed

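Chromatin and RNA of HepG2 cells were measured with 1 sample per assay, grouped by the labels. Per the labels, reads were mapped to hg19. The submitters' processing notes name BWA, TopHat2 2.1.0, Bowtie, HOMER 4.7 and edgeR. The nucleosome positions deposited by the authors are 140 bp DANPOS calls. The deposited histone peaks, per the study's methods, are positions with enrichment in ChIP-Seq, each extending 3 bp beyond its position on either side. They hold no score, fold or depth. The authors deposited expression as FPKM per locus in 2 columns, with no counts, so RNA-Seq depth is unknown.

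Here, Python 3.11.15 with pandas 2.3.3 and scipy 1.17.1 was used. Each of 319086 peaks was assigned to the position it overlapped most. A position counted in a window if its midpoint lay there. Windows were the locus plus 10 kb, or 2 kb around the listed start. Strand was inferred from the order of locus numbers and equalled that of RefSeq for 99.4% of 8596 loci checked. Levels are the mean of both runs, and log2 differences used a pseudocount of 0.01. The counting of positions in windows was tested on simulated data. The assignment of peaks was not simulated, but all 319086 peaks carried the identifier of their assigned position. No test between samples was possible. Background shares were counted over all named loci, 22118 of them on chromosomes 1 to 22, X and Y, and 14034 with coordinates and strand of their own.

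The members and lists (cystatins, lipocalins, inter-alpha-trypsin inhibitor heavy chains, retinol handling, kallikrein-kinin, vitronectin partners, plasma carriers and cell type markers) were chosen with earlier results of these data known. All 8 members, genes reaching into their windows and their nearest neighbours are named, and from each list the 3 highest by FPKM and any with H3K27me3 or H3K9me3 in its own window, other list genes singled out (STRA6, the kinin receptors) having been chosen after their values were seen. Some list genes are not reported here. For the marker lists only the range, sums and the leukocyte genes are given. Alternatives were single runs, other FPKM limits, other windows, other overlap rules and loci with their own coordinates.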

Additional observations from a re-analysis of the deposited data

How the results depend on the processing

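Of 48 alternatives to the results given, 40 left the value within the limits set for no change and 8 moved it. Some of the 40 could not move, so their number is not a measure of robustness. Leaving out loci with no listed expression cannot change a rank counted from the top. The sum over rows with a member symbol alone used the same rows as the main sum. The number of expressed genes fell from 8 to 6 at an FPKM of at least 5, which was counted as no change. The number of genes with H3K27me3 or H3K9me3 fell from 2 to 1 when the locus alone was read, since the H3K9me3 position of TTR lies beyond its end. The marked share of positions was 9.24% over the loci alone, 9.74% with 2 kb on either side, 8.32% with 5 kb and 5.24% with 20 kb, against 6.80% with 10 kb. The number of genes with a trivalent position stayed at 4 under every window and overlap rule tried, and the trivalent positions near the TSS numbered 15 or 16. Over loci with their own coordinates alone, the background shares were 85.6% for any mark, 52.0% for a trivalent position and 44.2% for H3K27me3 or H3K9me3. A stricter peak threshold was not run because the lists hold no score. No paired analysis was possible because each assay has 1 sample. Without replicate libraries or read depth, no value has a biological error, and a position without a called peak cannot be told apart from one below the authors' threshold.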
